A study of Mus musculus with 6 samples.

Results

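The genes described here are 30 genes by which Müller glia, the radial support cells of the retina, are recognised and through which they keep the neurons' surroundings constant. They were chosen by symbol for their role, as genes of Müller glia identity, of glutamate, water and potassium handling, of acid-base control and of the dystrophin complex, with earlier results of these data known. All 30 were among the 32285 genes of the count table, and all 30 were among the 20021 genes that reached 10 counts over the 6 libraries and were tested. Bulk RNA of C57BL/6J wild-type mouse retinas was sequenced at postnatal day 18 (PN18) in 3 libraries of OIR-CIH and 3 of OIR-Norm. Both groups carried the same oxygen-induced retinopathy (OIR), produced by 75% O2 for 5 days from PN8 to PN13, so that neither is a healthy retina. OIR-CIH pups also went through chronic intermittent hypoxia (CIH), in which the cage O2 fell from 20.95% to 5% and rose again in 266 cycles of 135 s over 10 h daily, with 30 s at the low level and 45 s at the high level in each cycle. OIR-Norm pups had the gas flow and its noise with O2 left at room level. The comparison therefore asks which retinal transcripts differ with intermittent hypoxia in a retina that is already ischemic.

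Müller glia span the whole thickness of the retina, and their endfeet surround the vessels and form its inner border. They take up the glutamate released by neurons and return it as glutamine, carry potassium and water away from active synapses, hydrate the CO2 made by photoreceptors, and store and recycle retinoids. Dystrophin and dystroglycan anchor the water channel aquaporin-4 and the potassium channel Kir4.1 in the endfeet, and SOX, LHX2, RAX and NFI transcription factors are known for establishing or keeping the glial state.

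Values are in CPM, which are counts brought to a common library total with edgeR's TMM factors, and are given in the order of replicates 1, 2 and 3. The total count per library was between 26289905 and 38010151. The members other than Acsbg1 had from 542 to 78254 counts in every library. Acsbg1 left out, the coefficient of variation of a member within a group was from 0.603% to 32.6%, with medians of 8.59% in OIR-CIH and 7.45% in OIR-Norm. Together the members made up 0.689% of the retinal counts, with sums of 6421 to 7427 CPM in OIR-CIH and 6341 to 7059 CPM in OIR-Norm. Xist (298 to 1653 CPM) and Y-linked RNA (57.3 to 184 CPM) were both present in each library, so that n counts libraries that may each hold RNA of several animals, and the p-values measure the spread between these libraries, which may be technical. In RNA of a whole retina, fewer Müller glia and less RNA per Müller glial cell cannot be told apart.

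No member was called between the groups, a call being an adjusted p under 0.05 from edgeR's quasi-likelihood test with Benjamini-Hochberg adjustment and a log2 fold change above 0.5 or below -0.5. Over all genes tested, 79 were called, which is 0.395%, so that no call among 30 genes is near the background. At an unadjusted p under 0.05 there were 9 members, 6 with a higher mean in OIR-CIH (Rlbp1, Slc38a3, Car2, Car14, Lhx2 and Rax) and 3 with a lower mean (Aqp4, Dmd and Abca8a), where the share over all genes was 13.1%. The OIR-CIH values lay entirely above the OIR-Norm values in 4 members (Rlbp1, Slc38a3, Car2 and Car14) and entirely below them in 4 (Aqp4, Dmd, Abca8a and S100a16), beside a background of 18.4% of all genes and 21.2% of the genes with at least 10 CPM. DESeq2 also called 0 members, but gave Rlbp1, Car14, Aqp4 and Dmd adjusted p of 0.00484, 0.00757, 0.0220 and 0.0344, with fold changes under the minimum. Their means in OIR-CIH differed from those in OIR-Norm by 26.7% for Rlbp1, 31.5% for Car14, -19.3% for Aqp4 and -20.6% for Dmd. The same 4 genes had an adjusted p under 0.05 in edgeR when the minimum was lowered to 1 count. With the fold minimum, DESeq2 called 135 of 20021 genes and edgeR at 1 count 148 of 24439. The share of all genes under that adjusted p alone is not given for these 2 fits. Whether 4 of 30 members is above the background therefore cannot be read here.

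The members did not shift in 1 direction. The fitted log2 fold change (OIR-CIH minus OIR-Norm) was above 0 in 15 members and below 0 in 15, the latter including Acsbg1 with only 20 counts. The median over the members was 0.01, beside a median of 0.00 over all genes tested. Fitted values ranged from -0.38 for Gja1 to 0.44 for Enpp2. The 95% interval lay within 0.5 of 0 in 24 of the 30 members, which bounds these changes rather than showing that there were none. Among all genes with at least 10 CPM such an interval was found for 91.1%, and among the 29 members with that level for 24, so that the members were not measured as more alike between the groups than other genes of this level. The 6 with wider or shifted intervals were Rlbp1, Car14, Gja1, Dmd, Enpp2 and Acsbg1.

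**Figure D1:**
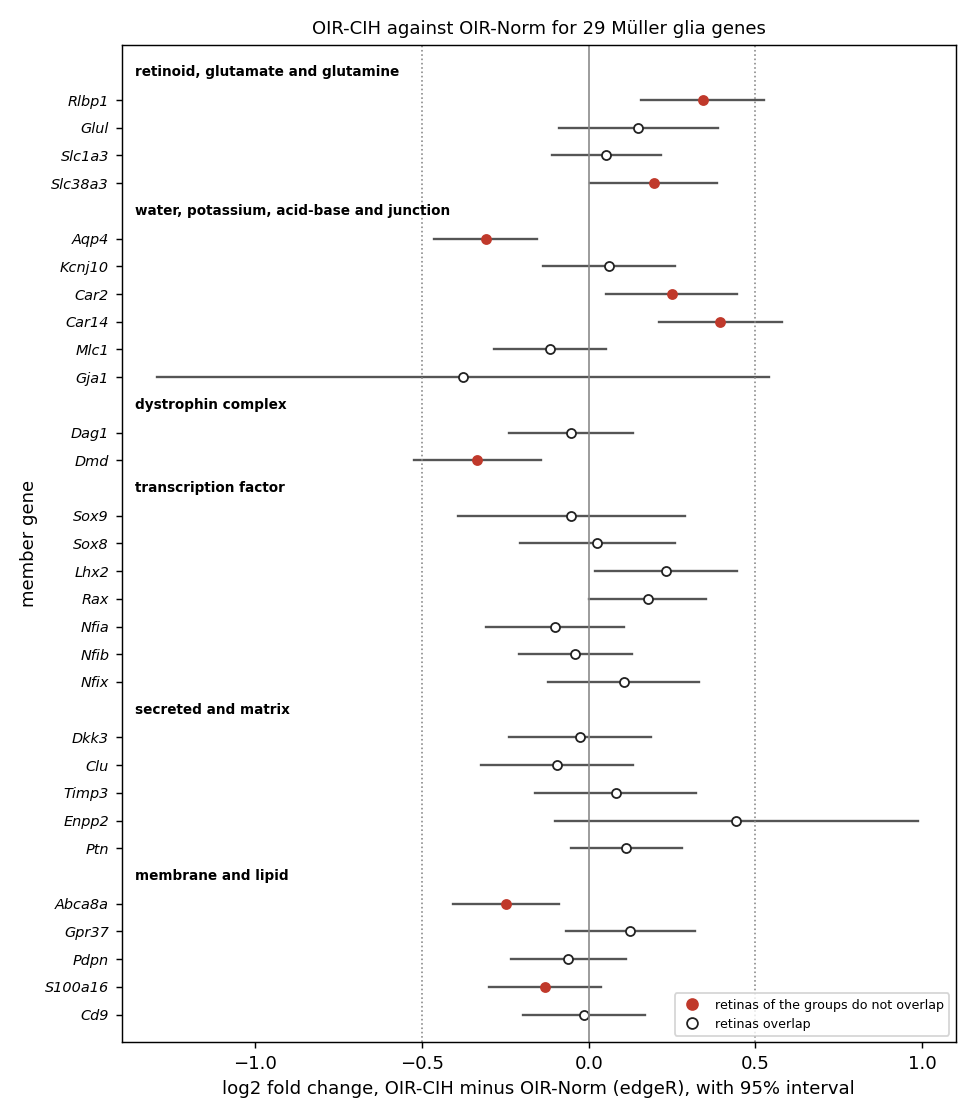
The x axis gives the log2 fold change of 29 members (OIR-CIH minus OIR-Norm, edgeR) with its 95% interval, by role on the y axis, and dotted lines mark 0.5 in either direction; Acsbg1 is left out for its few counts. Filled points, for the 8 members whose libraries do not overlap between the groups, lie on both sides of 0, from -0.33 for Dmd to 0.40 for Car14, and the intervals of Gja1 and Enpp2 are the widest.

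Promoters are shown for the members with the lowest unadjusted p in each direction for which a window was at hand, Car14 and Rlbp1 with higher means in OIR-CIH and Dmd and Abca8a with lower means. Each window runs from 250 bases before a RefSeq transcription start to 50 bases after it (GRCm38.p6), on the strand of the gene, 5′ to 3′. Capitals mark matches, on either strand and with overlaps allowed, to 4 motifs of factors that are members or drive glial reactivity: a SOX core (AACAAT), a homeodomain core of the LHX2 and RAX kind (TAATTA), an NFI half-site (TTGGC, which reads GCCAA on the other strand) and a STAT motif (TTCNNNGAA).
Car14, chr3:95904636-95904935, minus strand: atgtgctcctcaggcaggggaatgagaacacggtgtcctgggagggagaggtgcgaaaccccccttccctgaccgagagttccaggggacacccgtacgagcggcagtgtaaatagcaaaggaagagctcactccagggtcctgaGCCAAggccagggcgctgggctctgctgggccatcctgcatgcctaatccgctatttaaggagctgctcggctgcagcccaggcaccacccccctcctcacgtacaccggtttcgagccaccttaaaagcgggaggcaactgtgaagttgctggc
Rlbp1, chr7:79386978-79387277, minus strand: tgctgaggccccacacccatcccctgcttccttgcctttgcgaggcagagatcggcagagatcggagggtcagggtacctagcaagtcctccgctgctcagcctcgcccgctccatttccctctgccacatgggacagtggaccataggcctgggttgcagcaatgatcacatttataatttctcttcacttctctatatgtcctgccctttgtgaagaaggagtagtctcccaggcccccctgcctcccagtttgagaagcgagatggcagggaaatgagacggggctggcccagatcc
Abca8a, chr11:110095888-110096187, minus strand: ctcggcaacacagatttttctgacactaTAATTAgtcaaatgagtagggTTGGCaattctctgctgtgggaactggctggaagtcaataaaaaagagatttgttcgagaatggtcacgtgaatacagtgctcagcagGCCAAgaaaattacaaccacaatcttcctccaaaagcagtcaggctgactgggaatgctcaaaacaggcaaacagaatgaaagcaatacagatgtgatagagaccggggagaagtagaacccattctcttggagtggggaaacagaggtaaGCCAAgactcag
Dmd, upstream start, chrX:82948620-82948919, plus strand: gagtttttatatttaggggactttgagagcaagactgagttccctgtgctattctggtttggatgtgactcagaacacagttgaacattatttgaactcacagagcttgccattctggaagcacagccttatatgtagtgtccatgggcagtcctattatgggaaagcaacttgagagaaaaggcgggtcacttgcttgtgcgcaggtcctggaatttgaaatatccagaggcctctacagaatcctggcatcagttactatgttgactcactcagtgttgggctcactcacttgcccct
Dmd, downstream start, chrX:85048045-85048344, plus strand: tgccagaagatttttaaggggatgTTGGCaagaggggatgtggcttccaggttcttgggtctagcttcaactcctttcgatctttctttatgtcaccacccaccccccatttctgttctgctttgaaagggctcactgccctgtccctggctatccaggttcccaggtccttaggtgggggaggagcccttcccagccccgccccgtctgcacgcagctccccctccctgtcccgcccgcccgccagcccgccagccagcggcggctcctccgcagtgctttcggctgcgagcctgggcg
Distances are those of the first base of a match from the transcription start. The Car14 window held 1 NFI half-site, upstream of the start, and the Rlbp1 window no match to the 4 motifs. In Abca8a the homeodomain core stood at -222 and NFI half-sites at -201, -113 and 38, and in Dmd the only match was an NFI half-site at -226 of the downstream start. Of the 30 members, 21 had windows in the table, 28 windows in all. The SOX core was in 1 of the 28 (S100a16) and in 10.7% of all 32851 windows, TAATTA in 3 (Abca8a, Nfix and Slc1a3) and in 5.29%, the NFI half-site in 16 windows of 13 genes and in 46.7%, and the STAT motif in 3 (Acsbg1, Nfix and Slc1a3) and in 8.30%. These are letters in a window and not measured sites.

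The retinoid and glutamate genes all had a higher mean in OIR-CIH. Rlbp1, which encodes the retinaldehyde-binding protein CRALBP that carries visual-cycle retinoids, stood at 556, 492 and 511 CPM in the OIR-CIH libraries and at 437, 403 and 389 CPM in the OIR-Norm libraries. Its 6 values did not overlap, with the lowest OIR-CIH library above the highest OIR-Norm library, but the adjusted p missed the threshold (log2 fold change 0.34, standard error 0.09, 95% interval 0.16 to 0.53, edgeR adjusted p = 0.118). Slc38a3, the glutamine carrier SNAT3 that releases glutamine for neurons, had 613, 547 and 549.9 CPM in OIR-CIH and 527, 508 and 457 CPM in OIR-Norm. Those libraries also did not overlap, although OIR-CIH replicate 2 and OIR-Norm replicate 1 were close (log2 fold change 0.20, interval 0.01 to 0.39, edgeR adjusted p = 0.368). Glul, the glutamine synthetase that makes glutamine from the glutamate taken up, was the most abundant member, with 2026, 1632 and 2071 CPM in OIR-CIH and 1812, 1755 and 1601 CPM in OIR-Norm. OIR-CIH replicate 2 lay among the OIR-Norm libraries, and the interval ran from -0.09 to 0.39 (edgeR adjusted p = 0.611). Slc1a3, the glutamate transporter GLAST of Müller glia, had 319.7, 294 and 316 CPM in OIR-CIH and 299.9, 297 and 299.5 CPM in OIR-Norm. The OIR-Norm libraries of Slc1a3 were within the range of the OIR-CIH libraries, and its log2 fold change of 0.05 had an interval of -0.11 to 0.22.

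The genes of water, potassium and acid-base handling had fitted changes of both signs. The carbonic anhydrases had higher means in OIR-CIH. Car14, a membrane carbonic anhydrase that acts on the CO2 and bicarbonate outside the cell, had 118, 100.1 and 106 CPM in OIR-CIH and 84.5, 88.4 and 73.4 CPM in OIR-Norm. Each OIR-CIH library was above each OIR-Norm library, and Car14 had the lowest adjusted p of the members (log2 fold change 0.40, standard error 0.09, interval 0.21 to 0.58, edgeR adjusted p = 0.0594). Its transcript overlaps Aph1a on the opposite strand in GENCODE M21, and because it is not stated which strand was counted, a part of its 17357 counts could belong to that gene, which had 5447. Car2, the abundant cytosolic carbonic anhydrase of Müller glia, had 542, 481 and 506 CPM in OIR-CIH and 465, 382 and 439 CPM in OIR-Norm. These groups did not overlap either (log2 fold change 0.25, interval 0.05 to 0.45, edgeR adjusted p = 0.278).

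Aqp4, the water channel of the endfeet, was lower in each OIR-CIH library than in each OIR-Norm library, with 76.2, 73.4 and 78.5 CPM against 91.1, 92.1 and 99.3 CPM. The spread within each group was small, and the log2 fold change of -0.31 (standard error 0.07, interval -0.46 to -0.15) missed the threshold at an edgeR adjusted p of 0.0909. Kcnj10, which encodes the inward rectifier Kir4.1 that carries potassium through the same endfeet, had 56.7, 50.1 and 66.7 CPM in OIR-CIH and 55.1, 54.8 and 56.5 CPM in OIR-Norm. Its OIR-Norm libraries lay inside the range of the OIR-CIH libraries, and the log2 fold change of 0.06 (interval -0.14 to 0.26) turned to -0.058 without OIR-CIH replicate 3. Mlc1, a membrane protein of perivascular astroglial contacts, averaged 76.3 ± 6.80 (SD, n = 3) CPM with CIH and 82.8 ± 2.34 (SD, n = 3) CPM without it, with a log2 fold change of -0.12. Gja1, the gap junction protein connexin 43, varied most within the groups, at 70.5, 50.9 and 81.2 CPM in OIR-CIH and 108, 99.7 and 55.1 CPM in OIR-Norm. OIR-Norm replicate 3 was as low as the OIR-CIH libraries, and the interval of the log2 fold change (-0.38) ran from -1.29 to 0.54. Without OIR-Norm replicate 3 this value was -0.62 and without OIR-Norm replicate 1 it was -0.20, with edgeR adjusted p of 0.187 and 0.870.

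The dystrophin complex was represented by its scaffold and by its matrix receptor. Dmd, the dystrophin gene, had 208, 232 and 189.6 CPM in OIR-CIH and 260.3, 247 and 286 CPM in OIR-Norm, so that each OIR-CIH library was below each OIR-Norm library (log2 fold change -0.33, standard error 0.09, interval -0.52 to -0.14, edgeR adjusted p = 0.152). The count sums all isoforms, among them the long dystrophins of photoreceptors and the short one of Müller glia, which start at different promoters, and was not split between them. Dag1, which encodes dystroglycan, had 123, 119 and 141 CPM in OIR-CIH and 144, 133 and 120.3 CPM in OIR-Norm, with overlapping groups and a log2 fold change of -0.05 (interval -0.24 to 0.13). Of 12 other genes of this complex, 3 had higher and 9 lower fitted means in OIR-CIH and none was called, with a median log2 fold change of -0.08. Sntb1 (0.19) and Sntb2 (-0.13), 2 syntrophin genes, had groups that did not overlap, 1 in each direction, and the dystrophin relative Utrn had a log2 fold change of -0.11.

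**Figure D2:**
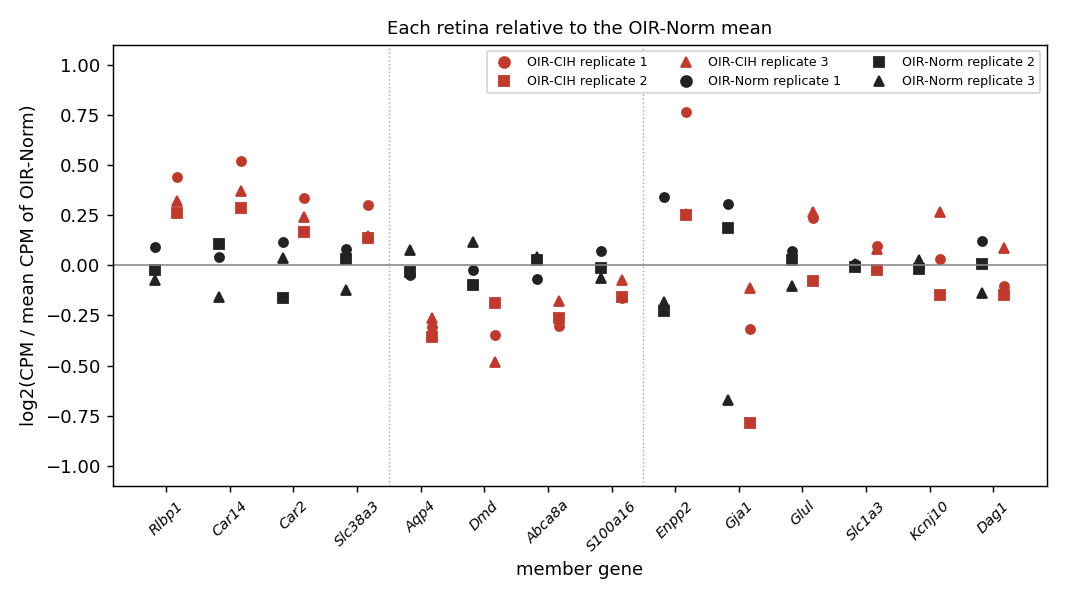
The y axis gives log2 of a library's CPM over the OIR-Norm mean for 14 members on the x axis, with OIR-CIH in red, OIR-Norm in black and the marker shape for the replicate number. The 4 genes on the left (Rlbp1, Car14, Car2 and Slc38a3) have all OIR-CIH libraries above all OIR-Norm libraries, the next 4 (Aqp4, Dmd, Abca8a and S100a16) all below, and the 6 on the right overlap.

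Of the 7 transcription factors of glial identity, 2 (Lhx2 and Rax) had an unadjusted p under 0.05. All 7 had intervals within 0.5 of 0 and in 0 were the groups apart, counts near the shares of 91.1% and 21.2% over all genes with at least 10 CPM. Lhx2, a LIM-homeodomain factor that keeps Müller glia in their differentiated state, had 66.6, 57.5 and 67.3 CPM in OIR-CIH and 63.6, 50.7 and 48.8 CPM in OIR-Norm, a log2 fold change of 0.23 with an interval of 0.02 to 0.44 (edgeR adjusted p = 0.346). Rax, the retinal homeobox factor, had 69.4, 65.9 and 70.4 CPM in OIR-CIH and 67.5, 59.1 and 55.3 CPM in OIR-Norm, a log2 fold change of 0.18 (edgeR adjusted p = 0.375). In both genes OIR-Norm replicate 1 lay within the range of the OIR-CIH libraries while the other OIR-Norm libraries were lower. Sox9, the SOX factor most used to label Müller glial nuclei, averaged 31.4 ± 4.79 (SD, n = 3) CPM with CIH and 32.5 ± 6.74 (SD, n = 3) CPM without it, and its relative Sox8 averaged 21.0 ± 1.89 (SD, n = 3) and 20.6 ± 2.31 (SD, n = 3) CPM. The log2 fold changes of -0.05 (interval -0.39 to 0.29) and 0.03 (-0.21 to 0.26) changed sign when single libraries were left out. The nuclear factor I genes Nfia, Nfib and Nfix, which drive the late, gliogenic stage of retinal progenitors, had log2 fold changes of -0.10, -0.04 and 0.10. Nfib varied little, with 36.2, 34.9 and 35.7 CPM in OIR-CIH and 38.4, 35.9 and 35.5 CPM in OIR-Norm. Nfia overlaps E130114P18Rik on the opposite strand (3275 counts beside 5120), and Sox8 and Rax overlap antisense genes with fewer counts (602 and 893), so that a part of their counts could come from those genes.

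The secreted and matrix genes overlapped between the groups without exception. Dkk3, a secreted Dickkopf family protein, averaged 792 ± 98.2 (SD, n = 3) CPM with CIH and 806 ± 32.5 (SD, n = 3) CPM without it. Clu, the extracellular chaperone clusterin, averaged 547 ± 64.0 (SD, n = 3) and 585 ± 68.8 (SD, n = 3) CPM. Their log2 fold changes were -0.03 (interval -0.24 to 0.19) and -0.09 (-0.32 to 0.13). Timp3, an inhibitor of matrix metalloproteinases, had a log2 fold change of 0.08 that became -0.056 without OIR-Norm replicate 3, and it overlaps Syn3 on the opposite strand. Ptn, the growth factor pleiotrophin, had one of 0.11 (interval -0.05 to 0.28). Enpp2, which encodes autotaxin, the enzyme that makes lysophosphatidic acid, had the highest fitted value of the members and a wide interval, with 198, 139 and 139 CPM in OIR-CIH and 148, 99.6 and 103 CPM in OIR-Norm. Replicate 1 was the highest library in both groups, and the log2 fold change of 0.44 (standard error 0.22, interval -0.10 to 0.99, edgeR adjusted p = 0.475) was 0.25 without OIR-CIH replicate 1 and 0.64 without OIR-Norm replicate 1. With the replicate number as a block the value was 0.45 at an adjusted p of 0.0118, below the fold minimum, and Enpp2 was the only member under 0.05 in that fit.

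Of the membrane and lipid genes, Abca8a, a lipid transporter of the ABC family, was lower in each OIR-CIH library (139.8, 144 and 152 CPM) than in each OIR-Norm library (165, 176 and 177 CPM). The log2 fold change was -0.25 (standard error 0.07, interval -0.41 to -0.09, edgeR adjusted p = 0.195), and the neighbouring paralog Abca8b makes the assignment of its reads less certain. S100a16, a calcium-binding protein of the S100 family, also did not overlap, with 38.2, 38.3 and 40.6 CPM in OIR-CIH and 45.0, 42.3 and 41.0 CPM in OIR-Norm, but the nearest libraries differed little and the interval of -0.30 to 0.04 held 0. Gpr37, an orphan receptor, Pdpn, the surface glycoprotein podoplanin, and Cd9, a tetraspanin, had log2 fold changes of 0.12, -0.06 and -0.01, with intervals within 0.5 of 0. Acsbg1, an acyl-CoA synthetase that is listed as a marker of astroglia, was near the floor with 20 counts over the 6 libraries, so that no fold change is given and it says nothing of Müller glia in these retinas.

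Levels per kilobase of exon spanned a wide range. The length is that of all annotated exons of a gene together. It can exceed that of the transcripts present, as for the short isoform of Dmd, so that comparisons between genes are approximate. Glul was highest at 547 CPM per kilobase over the 6 libraries, followed by Dkk3 (238), Car2 (194), Clu (165), Rlbp1 (157) and Slc38a3 (101). The transcription factors ranged from 13.4 for Lhx2 and 11.1 for Rax to 2.57 for Nfia and 2.41 for Nfib, and of all members only Acsbg1, at 0.0307, was below Nfia and Nfib. The endfoot genes lay below the enzymes Glul and Car2, with 13.7 for Aqp4, 10.5 for Kcnj10, 9.97 for Dmd and 7.57 for Gja1. Libraries differed in the members as a set. Of the 29 members other than Acsbg1, OIR-CIH replicate 1 was the highest of the 6 libraries in 10 and OIR-CIH replicate 2 in 0, and OIR-CIH replicate 2 was the lowest in 12 and OIR-Norm replicate 3 in 10.

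**Figure D3:**
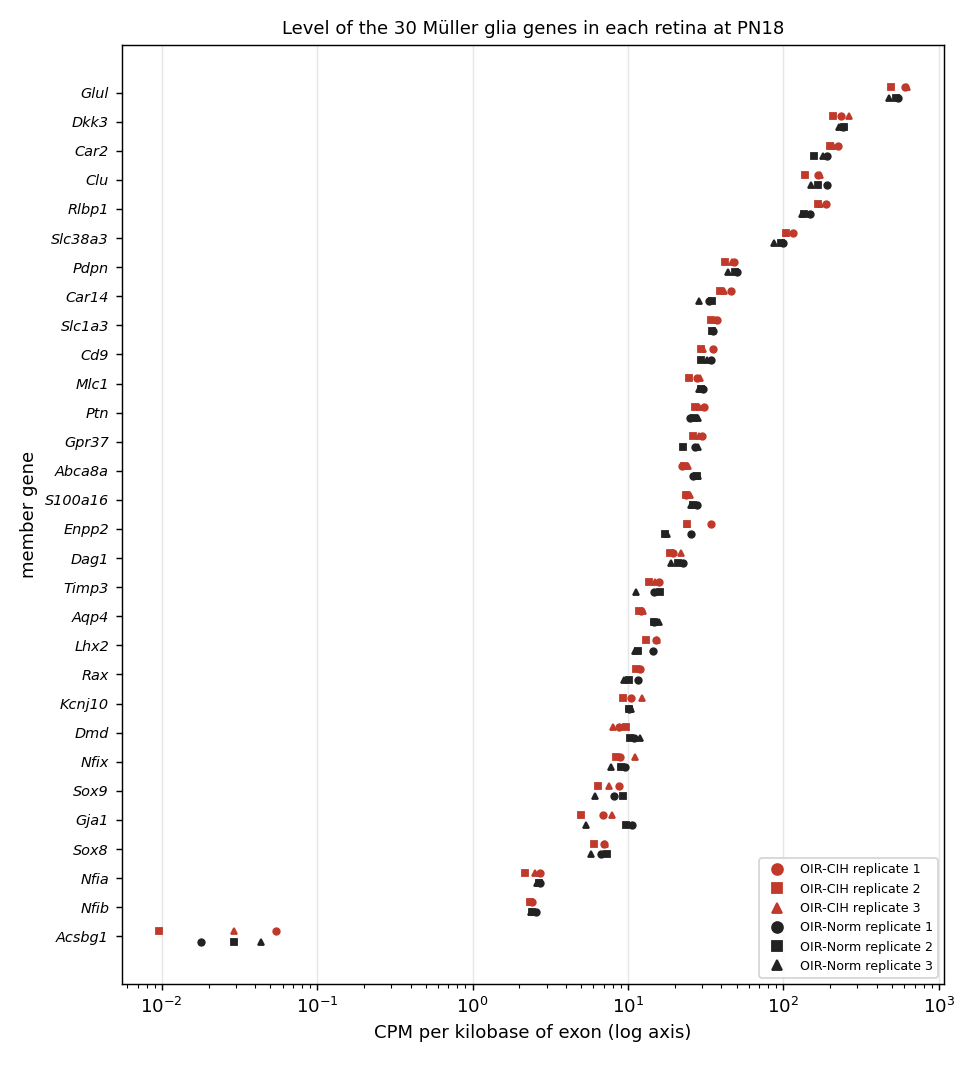
The x axis gives the level of each of the 30 members in CPM per kilobase of exon on a log scale, with 1 point per library, OIR-CIH in red and OIR-Norm in black. The order runs from Glul at a mean of 547 to Acsbg1 at 0.0307, and the distance between the groups is small beside the distance between genes.

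Genes that work with the members were listed by role. Among 10 other genes of glutamate and glutamine handling 4 had higher and 6 lower fitted means, 1 was called and the median log2 fold change was -0.03. This was Slc7a11, the cystine-glutamate exchanger xCT, which stood at 7.89, 8.88 and 9.98 CPM in OIR-CIH and at 17.2, 18.6 and 13.0 CPM in OIR-Norm and fell without overlap of the groups (log2 fold change -0.86, edgeR adjusted p = 0.00819). The other glial glutamate transporter gene Slc1a2 had a log2 fold change of -0.05. Among 12 other genes of potassium, water and acid-base handling 9 had higher and 3 lower fitted means, none was called and the median was 0.07. The carbonic anhydrase gene Car12, with 18.7, 14.1 and 14.9 CPM in OIR-CIH and 14.3, 10.1 and 8.32 CPM in OIR-Norm, had the same sign as Car2 and Car14 (0.54 on the log2 scale, edgeR adjusted p = 0.260), but its groups overlapped. The inward rectifier gene Kcnj2 had a log2 fold change of -0.42 (edgeR adjusted p = 0.266). Among 18 other marker genes of Müller glia 8 had higher and 10 lower fitted means, none was called and the median was 0.00, with the lowest p in Col9a1 (-0.21), Rdh10 (0.22) and Hes1 (0.24).

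The genes of glial reactivity, which Müller glia and astrocytes raise in an injured retina, gave other counts than the members. All 20 of that list had lower fitted means in OIR-CIH, 11 were called, 16 had groups apart and the median log2 fold change was -1.08, where the members had 0 called and a median of 0.01. This list was chosen with earlier results of these data known, so that its direction is no independent evidence. Gfap, the intermediate filament protein raised in reactive Müller glia, fell, with 61.5, 62.5 and 67.5 CPM in OIR-CIH and 158, 147 and 119 CPM in OIR-Norm (log2 fold change -1.15, edgeR adjusted p = 9.89e-06), and Hmox1, C4b and Edn2 fell by 2.19, 1.12 and 2.18 on the log2 scale. Vim, the filament that Müller glia carry also at rest, had a log2 fold change of -0.12 (interval -0.35 to 0.10), close to those of Clu and Mlc1.

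**Figure D4:**
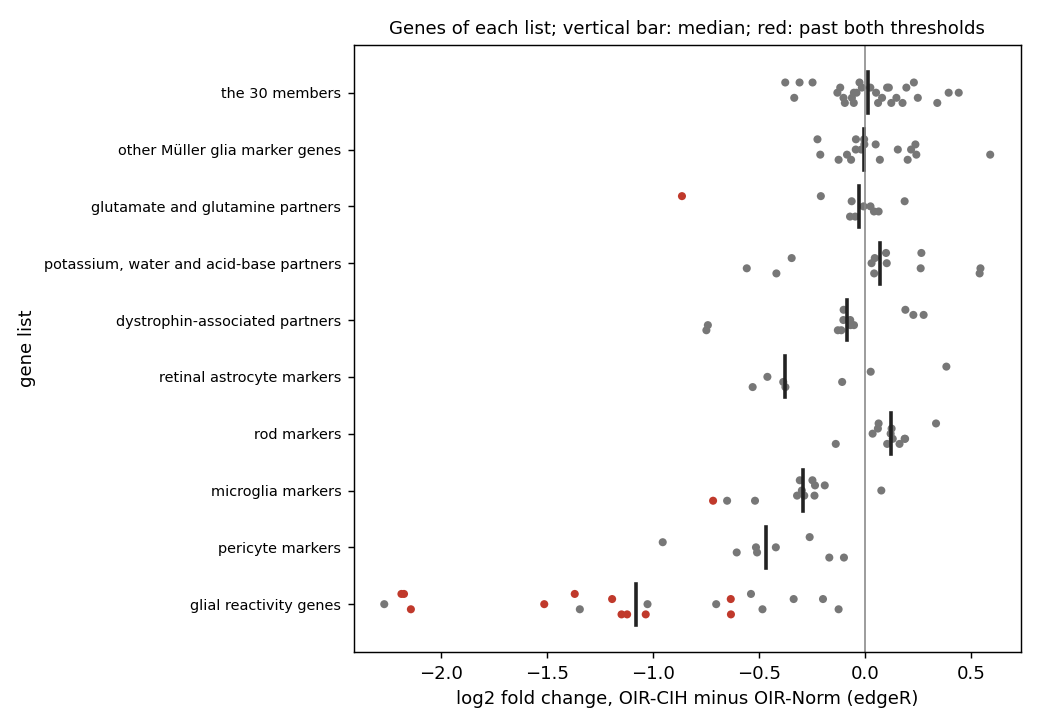
The x axis gives the log2 fold change (OIR-CIH minus OIR-Norm, edgeR) of each gene of 10 lists on the y axis, with a bar at the list's median and the called genes in red. Acsbg1 has no point, for its few counts, but is included in the members' median. The 30 members and the other Müller glia markers lie around 0 with no called gene, and the glial reactivity genes lie below 0 with 11 called.

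Markers of other cells that could carry members' RNA were read from the same libraries. Retinal astrocytes also express Aqp4, Gja1, Slc1a3 and Glul. Of 7 astrocyte markers 5 had lower and 2 higher fitted means with a median log2 fold change of -0.38, none was called, and their sums were 129.7 to 130.3 CPM in OIR-CIH and 123 to 208 CPM in OIR-Norm. Cryab, which is also a lens crystallin, made up 101 CPM of the sum in OIR-Norm replicate 2, the library with lens RNA. Without Cryab, left out after its values were seen, the sums did not overlap, at 80.6 to 83.3 CPM in OIR-CIH and 86.0 to 107 CPM in OIR-Norm. That difference lay mainly in Pdgfra, with a mean of 30.5 CPM in OIR-CIH and 42.0 CPM in OIR-Norm. Only 3 of the 7 markers had groups apart, 2 lower and 1 higher in OIR-CIH. Pax2 (1.18 ± 0.0858 (SD, n = 3) CPM with CIH, 1.72 ± 0.197 (SD, n = 3) CPM without it) and Pdgfra (27.6, 31.0 and 32.8 against 38.3, 52.0 and 35.7 CPM) were lower in each OIR-CIH library, as Aqp4 was, and Fabp7 was higher in each. Oligodendrocyte markers, of interest for Car2, Gpr37 and Enpp2, summed to 78.0 to 82.2 CPM in OIR-CIH and 71.4 to 80.0 CPM in OIR-Norm with a median log2 fold change of 0.05 and none called, and Olig2 and Mobp were under the minimum count. The part of these cells in the members' values was not tested.

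The pigment epithelium, which touches the retina and is known to express Rlbp1, Car14, Enpp2 and Timp3, varied with some of the members. Its retinoid and secretory markers had higher means in OIR-CIH, with Ttr at 216, 156 and 147 CPM in OIR-CIH and 134, 86.3 and 88.6 CPM in OIR-Norm and Lrat at 38.6, 24.5 and 21.7 and 21.2, 14.8 and 12.4 CPM, both without overlap. Rpe65 had 61.4, 42.2 and 33.9 CPM in OIR-CIH and 38.9, 25.1 and 23.0 CPM in OIR-Norm. Its pigment markers mostly had the opposite sign, with log2 fold changes of -0.78 for Pmel, -0.18 for Dct, -0.40 for Tyrp1, -0.91 for Mlana and -0.03 for Tyr. Slc45a2 had one of 0.13. The intervals of these pigment markers all held 0 and were wide, as in Pmel (-2.42 to 0.87) and Tyrp1 (-1.67 to 0.86). Of the 11 markers 5 had higher and 6 lower fitted means with a median of -0.03, none was called, and the sums were 383 to 581 CPM in OIR-CIH and 264 to 582 CPM in OIR-Norm. As in Rlbp1 and Enpp2, OIR-CIH replicate 1 was the highest library in Rpe65, Lrat and Ttr and OIR-Norm replicate 1 the highest OIR-Norm library. The other members named here departed from this order. In Car14 OIR-Norm replicate 2 (88.4 CPM) was above OIR-Norm replicate 1 (84.5 CPM), and Timp3 was highest of all in OIR-Norm replicate 2 (130 CPM). The part of pigment epithelium RNA in the values of Rlbp1, Car14 and Enpp2 was not tested.

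**Figure D5:**
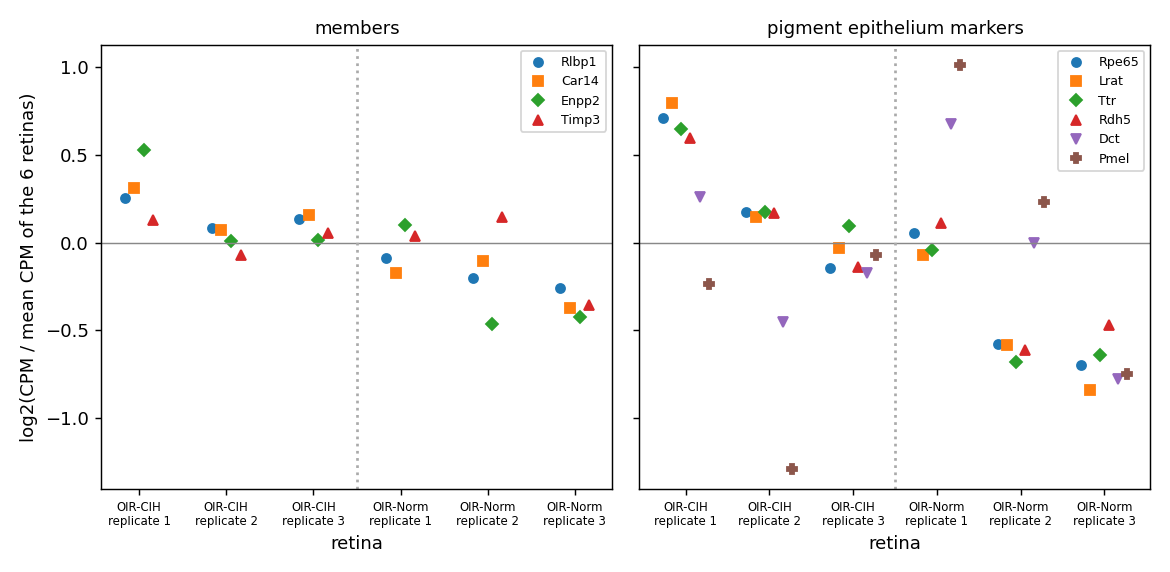
Each point is log2 of a library's CPM over the mean of the 6 libraries, for 4 members that pigment epithelium also expresses (left) and 6 of its markers (right), with the library on the x axis. OIR-CIH replicate 1 holds the highest values of Rlbp1, Car14 and Enpp2 and of Rpe65, Lrat, Ttr and Rdh5, whereas Dct and Pmel are highest in OIR-Norm replicate 1. Timp3 is highest in OIR-Norm replicate 2.

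Markers of the other retinal cells varied between libraries as well. Rod markers, which check the tissue as retina, summed to 63797 to 73343 CPM in OIR-CIH and 56170 to 72935 CPM in OIR-Norm, with 11 of 12 fitted means higher in OIR-CIH, none called and a median log2 fold change of 0.12. Of 12 microglia markers 11 had lower fitted means and 1 (Mpeg1) was called, with a median of -0.29. Of 8 pericyte markers all 8 had lower fitted means with none called and a median of -0.46, but in 0 were the groups apart. Their sums were 91.2, 106 and 139 CPM in OIR-CIH and 153, 238 and 98.1 CPM in OIR-Norm. The highest sum was thus that of OIR-Norm replicate 2, and OIR-Norm replicate 3 lay within the range of OIR-CIH. The bipolar, amacrine and horizontal, and endothelial lists had medians of 0.02, 0.18 and -0.12 with none called. OIR-Norm replicate 2 stood apart by lens RNA, with lens markers at 856 CPM where the other libraries had 37.9 to 123 CPM. Without OIR-Norm replicate 2 no member was called, and the log2 fold change of Car14 was 0.45 and that of Car2 was 0.17.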

How the data were processed

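Libraries of 3 OIR-CIH and 3 OIR-Norm retinas (PN18) were made from 250 ng of total RNA each with a stranded mRNA kit and sequenced. The authors aligned reads with STAR 2.7.9a and deposited the counts of each gene as whole numbers that were not normalized. Their methods name the genome of Ensembl 105 and the submitters' processing notes GRCm38, so no coordinates of the files were used, and which strand was counted is not stated. Symbols and exon lengths came from GENCODE M21 by gene identifier, with 127 genes unmatched, and promoter sequences from RefSeq (GRCm38.p6). Sequences matched to 21 members.

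Counts were tested with the quasi-likelihood test of edgeR 4.0.16 in R 4.3.3 after scaling by the trimmed mean of M-values, for genes that reached 10 counts in all, the minimum in the study's methods. A call needed a log2 fold change above 0.5 or below -0.5 with a Benjamini-Hochberg adjusted p under 0.05. Alternatives were median-of-ratios scaling, DESeq2 1.42.0, limma 3.58.1 on log2(CPM + 0.5), limma-voom, 2 other filters on low counts, no fold minimum, a block on the replicate number and leaving out each library. The method was tested on simulated data. No pair of libraries within a group looked like 1 library deposited again. The members and lists were chosen with earlier results of these data known. All 30 members are named, and from each other list at most the 3 genes with the lowest p, plus genes that bear on a member. Some genes under this rule are not reported here. Gfap, Vim, Utrn, Slc1a2, Rpe65, Pmel, Dct, Tyrp1, Mlana, Tyr and Slc45a2 were named as bearing on a member, after their values were seen.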

Additional observations from a re-analysis of the deposited data

How the results depend on the processing

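No member was called under any alternative, including no fold minimum, and the lowest adjusted p of a member depended on the test, from 0.00253 (Car14, minimum lowered to 1 count) to 0.295 (Aqp4, without OIR-CIH replicate 1). Of 203 fold changes of 29 members under the 7 other settings, 203 kept their sign and were not called, but 9 came to an adjusted p under 0.05, those of Rlbp1, Aqp4, Car14 and Dmd in DESeq2 and with the minimum of 1 count and that of Enpp2 with the replicate block. The share of all genes under that adjusted p in these fits is not given beside these 9. Without 1 library 161 of 174 kept their sign and 13, in 8 members, changed it, with 0 adjusted p under 0.05. The log2 fold changes of these 8 ranged, over the 6 fits without 1 library, from -0.059 to 0.10 in Sox8, -0.21 to 0.088 in Sox9, -0.12 to 0.058 in Dkk3, -0.10 to 0.035 in Cd9, -0.058 to 0.15 in Kcnj10, -0.031 to 0.18 in Nfix, -0.13 to 0.0065 in Dag1 and -0.056 to 0.19 in Timp3. The median of the members was between -0.03 (without OIR-Norm replicate 3) and 0.09 (without OIR-CIH replicate 2), and 0.01 with all libraries. Over all genes, 79 were called in edgeR, 135 in DESeq2, 148 with a minimum of 1 count, 47 without OIR-CIH replicate 1 and 133 without OIR-Norm replicate 3, the range over the fits that left out 1 library. The cause was not tested. With the replicate block 92 genes and 0 members were called. Deviations of same-numbered libraries correlated at 0.162, 0.143 and -0.238 over all genes. With 3 libraries per group, these values of both signs cannot settle whether the numbers pair the libraries. The members other than Acsbg1 had at least 542 counts in every library, and an effect of depth was not tested.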
